A study of Mus musculus with 2 samples.

Results

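Of the Fc receptor family and its ITAM adaptors, 5 genes were followed: Fcgr2b, Fcgr3, Fcgrt, Fcer1g and Tyrobp. They were chosen by name from the platform annotation, and all 5 were measured, each by 1 single-gene probe, among 4331 named genes in all. The arrays compared RNA of gamma delta T cells positive for CD5, a T cell surface glycoprotein, from the spleens of wildtype mice with RNA of the same kind of cells from mice carrying the LAT3YF allele. LAT is a membrane adaptor on which the enzymes behind the T cell receptor assemble, and 3YF stands for tyrosines exchanged for phenylalanine. Both populations were purified by magnetic selection for CD5 and flow sorting, and the labels give no strain, age, sex, number or pooling of the animals. Each of the 2 arrays carried both populations with the dyes reversed, and as no separate animals or extracts are named, the pair is 1 replicate of the comparison. No test of the difference could therefore be made, and an SD below is the technical spread of the 2 arrays.

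Values are log10 ratios of the 2 populations, with the sign of the - polarity array turned so that both arrays run the same way. Base 10 is an assumption, since neither the labels nor the table gives it, and every fold rests on it. The labels also do not name the numerator of the ratio, so a negative value marks a transcript more abundant in 1 of the populations, without saying which. A gene was called when its mean ratio was at least 2-fold (0.301 on the log10 scale) with the same sign on both arrays, which is a rule of size. In bulk RNA, fewer cells of a type and less RNA per cell cannot be told apart.

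Fc receptors bind the constant part of antibodies. The activating receptors have little signalling capacity of their own and pair with small adaptor chains, such as the products of Fcer1g and Tyrobp, whose tails carry an immunoreceptor tyrosine-based activation motif (ITAM). Src-family kinases phosphorylate the ITAM, which then recruits the kinase Syk or Zap70. The inhibitory receptor Fcgr2b carries an inhibitory motif (ITIM) instead, which recruits phosphatases. In the spleen these genes are best known from macrophages and other myeloid cells, NK cells and, for Fcgr2b, B cells.

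All 5 genes had a negative ratio on both arrays. The mean ratios ran from 1.75-fold for Fcgr2b to 2.77-fold for Fcer1g, with a median log10 ratio of -0.386. Fcer1g, Fcgrt, Tyrobp and Fcgr3 were called negative, 4 of the 5, and Fcgr2b lay below the threshold. Over all named genes 5.03% were called negative, 29.3% were negative on both arrays, 3.72% were called positive, and the median log10 ratio was 0.00230. The genes were picked with earlier results of these arrays known, so their count is a description. No member was called at 3-fold, or if the deposited values were log2 or natural logs, when the largest fold, that of Fcer1g, would be 1.36 or 1.56.

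**Figure D1:**
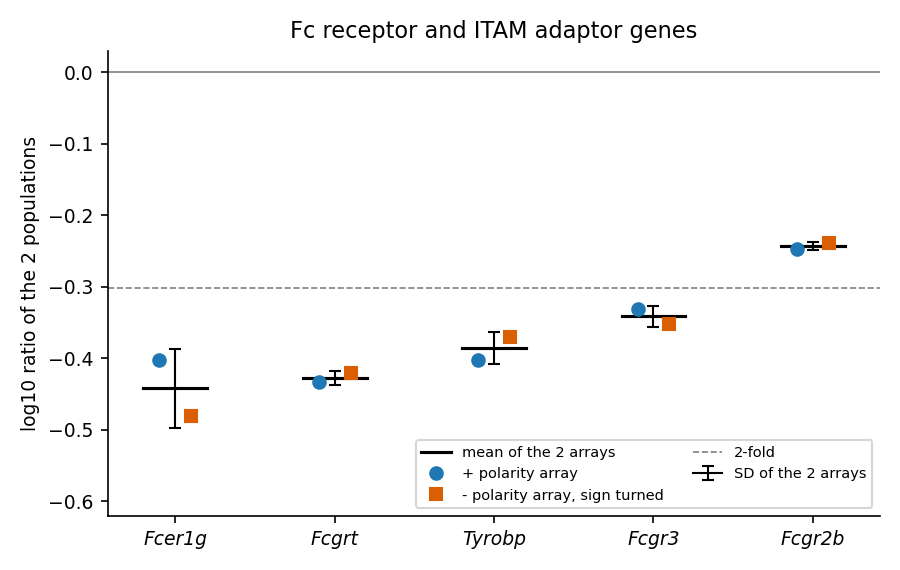
The log10 ratio (vertical axis) of each of the 5 genes on the + polarity array (circles) and on the - polarity array after turning (squares), with the mean (bar) and the SD of the 2 arrays (whiskers). Fcer1g, Fcgrt, Tyrobp and Fcgr3 lie beyond the dashed 2-fold line on both arrays, and Fcgr2b lies short of it on both.

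The adaptor chains were Fcer1g and Tyrobp. Fcer1g (Entrez Gene 14127) encodes the common gamma chain, needed for surface display and signalling of most activating Fc receptors. Its log10 ratio was -0.403 (+ polarity) and -0.481 (- polarity). The mean was -0.442 ± 0.0552 (SD of 2 arrays, 2.77-fold), the most negative of the 5, and 119 of the 4331 genes had a lower mean. It also had the widest gap between the arrays, 0.0781, close to the median gap over all genes of 0.0819. Tyrobp (Entrez Gene 22177) encodes DAP12, the adaptor of many activating NK cell and myeloid receptors. Its log10 ratio was -0.402 (+ polarity) and -0.370 (- polarity), with a mean of -0.386 ± 0.0226 (2.43-fold). The difference of the adaptors' ratios, Fcer1g minus Tyrobp, was -0.00120 (+ polarity) and -0.111 (- polarity), so their likeness held on 1 array only.

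The receptors for immunoglobulin G that bind on the cell surface were Fcgr3 and Fcgr2b. Fcgr3 (Entrez Gene 14131) encodes the activating low-affinity receptor CD16, which uses the Fcer1g chain. Its log10 ratio was -0.331 (+ polarity) and -0.352 (- polarity), with a mean of -0.341 ± 0.0148 (2.19-fold). Each array was thus past 2-fold, by a small margin. Fcgr2b (Entrez Gene 14130) encodes CD32B, the inhibitory counterpart of these receptors. Its log10 ratio was -0.247 (+ polarity) and -0.239 (- polarity), with a mean of -0.243 ± 0.00608 (1.75-fold). It stayed short of 2-fold on both arrays, which differed less for Fcgr2b than for 93.2% of all named genes. Fcgr3 and Fcgr2b encode closely alike extracellular domains, so their probes may share signal and the gene assignment is uncertain.

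Fcgrt (Entrez Gene 14132) encodes the heavy chain of the neonatal Fc receptor, an MHC class I-like molecule that recycles immunoglobulin G and albumin inside the cell. It has no ITAM and needs beta-2-microglobulin in place of the Fcer1g chain. Its log10 ratio was -0.433 (+ polarity) and -0.420 (- polarity), with a mean of -0.427 ± 0.00962 (2.67-fold). Fcgrt lay next to Fcer1g in size, although it belongs to another protein family than the other receptors.

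From the most negative, the order of the ratios was Fcer1g, Fcgrt, Tyrobp, Fcgr3 and Fcgr2b. Of the 10 pairs, 9 had the same order on both arrays. The exception was Fcer1g and Fcgrt, with a mean difference of -0.0156 ± 0.0648, smaller than the spread of the arrays, as was that of Fcer1g and Tyrobp (-0.0562 ± 0.0779). Tyrobp and Fcgr3 differed by -0.0446 ± 0.0375, little more than the spread. Fcgr2b stood apart from its nearest neighbour in the order, Fcgr3, with a difference between the log10 ratios of -0.0834 (+ polarity) and -0.113 (- polarity) (Fcgr3 minus Fcgr2b, mean -0.0982 ± 0.0209, 1.25-fold). The activating receptor thus had the more negative ratio of the pair on both arrays. Fcer1g, the signalling chain of Fcgr3, differed from it by -0.101 ± 0.0404.

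**Figure D2:**
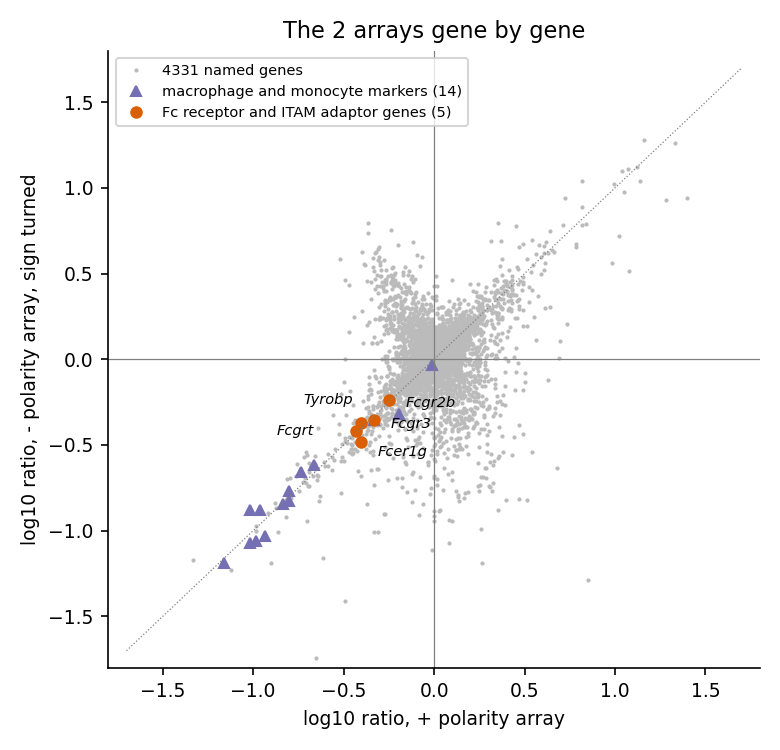
The log10 ratio of each of the 4331 named genes on the + polarity array (horizontal axis) against the - polarity array after turning (vertical axis); the dotted line marks equal values. The 5 genes (circles) lie close to the dotted line, nearer to 0 than 11 of the 14 measured macrophage and monocyte markers (triangles).

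Fcgr2b, Fcgr3 and Fcer1g lie in 1 stretch of mouse chromosome 1, and Tyrobp and Fcgrt lie apart from each other on chromosome 7, in the RefSeq annotation of GRCm38.p6. By the order of protein-coding genes there, only Fcgr4 separates Fcgr2b from Fcgr3, and 7 genes separate Fcgr3 from Fcer1g. Fcgr4 was sought here but had no single-gene probe. RefSeq promoter windows, from 250 bases before to 50 bases after the start, were found for 4 of the 5 genes (Fcgr2b, Fcgr3, Fcgrt and Fcer1g). The windows of the chromosome 1 genes are printed because these neighbours had ratios of the same sign and different size. They are written 5′ to 3′ on the minus strand of GRCm38.p6, at chr1:170976022-170976321 for Fcgr2b, chr1:171059354-171059653 for Fcgr3 and chr1:171234300-171234599 for Fcer1g. Capitals mark the letters of the searched motifs.
Fcgr2b: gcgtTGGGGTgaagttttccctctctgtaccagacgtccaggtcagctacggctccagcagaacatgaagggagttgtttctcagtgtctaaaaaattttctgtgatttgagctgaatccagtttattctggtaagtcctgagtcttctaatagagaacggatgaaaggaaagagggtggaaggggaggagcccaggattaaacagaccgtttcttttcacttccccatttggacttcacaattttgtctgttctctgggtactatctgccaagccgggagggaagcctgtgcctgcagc
Fcgr3: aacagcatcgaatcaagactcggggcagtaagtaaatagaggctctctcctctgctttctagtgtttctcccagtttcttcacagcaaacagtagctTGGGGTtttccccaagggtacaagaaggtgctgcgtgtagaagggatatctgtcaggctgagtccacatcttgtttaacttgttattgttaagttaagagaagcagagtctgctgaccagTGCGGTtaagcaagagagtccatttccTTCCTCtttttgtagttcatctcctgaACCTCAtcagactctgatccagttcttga
Fcer1g: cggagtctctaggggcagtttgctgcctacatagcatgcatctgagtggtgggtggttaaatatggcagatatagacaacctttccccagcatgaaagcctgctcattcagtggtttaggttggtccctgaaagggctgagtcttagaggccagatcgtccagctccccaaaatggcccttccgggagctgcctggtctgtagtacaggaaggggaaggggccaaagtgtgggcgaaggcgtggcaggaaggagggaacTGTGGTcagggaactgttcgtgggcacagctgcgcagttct
The motifs searched on both strands were GAGGAA, the core of the PU box bound by the myeloid factor PU.1, then TGNGGT, a core bound by RUNX factors, and TATAAA, the letters of a core promoter element. Of 32851 promoter windows of 300 bases in the table, 28.3% held the PU box core, 45.8% the RUNX core and 13.6% the core promoter element. In the Fcgr3 window the PU box core lies on the opposite strand, printed as TTCCTC, at positions -6 to -1 before the start. Its letters are not in the windows of Fcgr2b, Fcer1g and Fcgrt. The RUNX core occurs 3 times in the Fcgr3 window, on either strand, and 1 time each in those of Fcgr2b, Fcer1g and Fcgrt. The core promoter element is in none of the 4 windows, and no matches of different motifs overlap. A second RefSeq window of Fcgr3 overlaps the printed one and holds the same matches. A match describes the letters, not a bound site.

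The measured genes nearest to the 5 on their chromosomes were set beside them, 3 on each side. Of the 19 such genes that are not members, 0 were called, 9 had a mean below 0, and their median log10 ratio was 0.00780. Over all named genes 48.8% had a mean below 0, 5.03% were called negative and 3.72% positive, so these counts lie near the shares of all genes. The lowest was Fcrla, an Fc receptor-like gene of B cells near Fcgr2b, at -0.243 ± 0.0183 (1.75-fold), the same mean as Fcgr2b itself. The highest was Hcst, the gene next to Tyrobp with 0 protein-coding genes between them. Hcst encodes DAP10, the adaptor that carries a binding motif for phosphatidylinositol 3-kinase instead of an ITAM and pairs with the receptor NKG2D. Its log10 ratio was 0.198 (+ polarity) and 0.199 (- polarity), or 1.58-fold on average, below the threshold and of the opposite sign to Tyrobp on both. Nr1i3, between Fcgr3 and Fcer1g, had opposite signs on the arrays (-0.231 and 0.274).

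Other receptors of the Fc family gave mixed values. Of 13 listed Fc receptor and Fc receptor-like genes besides the 5, 7 were measured, 1 passed the threshold on the negative side and 0 on the positive, and the median log10 ratio was -0.118 (-0.172 and -0.0635 on the + and - polarity arrays). The called gene was Fcgr1, the high-affinity receptor CD64 of macrophages and monocytes, which also uses the Fcer1g chain. Its log10 ratio, averaged over 2 probes, was -0.614 (+ polarity) and -1.16 (- polarity), with a mean of -0.888 ± 0.388, 7.73-fold. Both probes were past 2-fold on each array, and its mean was below that of each of the 5. The chains of the receptor for immunoglobulin E on mast cells and basophils did not share one sign. Its beta chain gene Ms4a2 was at -0.213 ± 0.00707 and its alpha chain gene Fcer1a at 0.200 ± 0.0810, and neither was called. This receptor also uses the Fcer1g chain, whose gene was called negative at -0.442 ± 0.0552.

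Receptors that signal through the adaptors were in part on the negative side. Of 6 measured genes whose products use the Fcer1g chain, the negative calls numbered 3 and the positive 0 (median -0.196, with -0.336 and -0.169 on the + and - polarity arrays). Beside Fcgr1 these were Pira2, an activating paired immunoglobulin-like receptor, at -0.822 ± 0.169 (6.64-fold) and the C-type lectin gene Clec4d at -0.319 ± 0.106 (2.08-fold), the latter past 2-fold on the + polarity array alone. Of 7 measured genes whose products use Tyrobp, the negative calls numbered 3 and the positive 0 (median -0.192). The called genes encode NK cell receptors, namely Klrk1 (NKG2D) at -0.400 ± 0.216, Klra4 (Ly49D) at -0.391 ± 0.169 and Klrc2 (NKG2C) at -0.323 ± 0.198. Each was past 2-fold on 1 array only: Klrk1 was at -0.248 and Klra4 at -0.272 on the + polarity array, and Klrc2 was at -0.183 on the - polarity array. The myeloid Tyrobp partners Trem1 (-0.0410 ± 0.0580), Trem2 (-0.0856 ± 0.204) and Trem3 (-0.192 ± 0.0202) were not called. Nor was Clec5a, the remaining measured gene of this list, at 0.150 ± 0.605, with opposite signs on the arrays (-0.278 and 0.578). Probes for the Klra, Klrc and Pir families may share signal between close relatives.

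The kinases and adaptors that act after an ITAM were not called for the most part. Of 8 measured kinases, the negative calls numbered 2 and the positive 0 (median -0.0750). Syk, the kinase recruited by Fcer1g and Tyrobp in myeloid cells, was at -0.340 (+ polarity) and -0.270 (- polarity), with a mean of -0.305 ± 0.0494, 2.02-fold, just past the threshold in its mean and short of it on the - polarity array. The Tec-family kinase gene Tec was at -0.501 ± 0.0691 (3.17-fold). Zap70, the T cell relative of Syk, was at 0.135 ± 0.0716 and not called. Of 12 measured adaptors and enzymes downstream, the negative calls numbered 1 and the positive 0 (median -0.0171, with -0.0124 and -0.00134 on the + and - polarity arrays). The negative call was Blnk, the adaptor that B cells use behind their receptor, at -0.505 ± 0.0692 (3.20-fold). Its T cell and myeloid counterpart Lcp2 (SLP-76) was at 0.190 ± 0.0165, and Lat at 0.179 ± 0.0105, neither called. Among 7 measured chains with an ITAM or a related motif, 1 was called negative, Cd79b of the B cell receptor at -0.482 ± 0.0650 (3.03-fold). The T cell receptor chains Cd3d (-0.00738 ± 0.00625), Cd3g (0.0954 ± 0.0248), Cd3e (0.110 ± 0.101) and Cd247 (-0.185 ± 0.135) were not called.

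**Figure D3:**
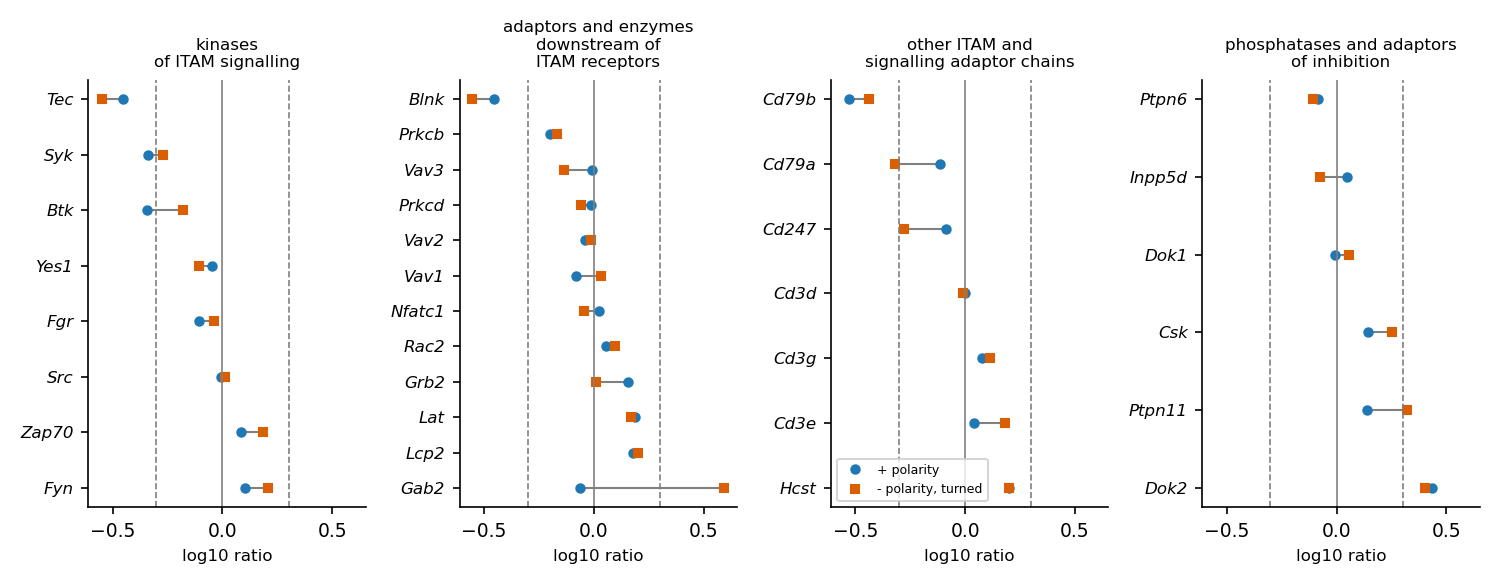
The log10 ratio (horizontal axis) of each measured gene of 4 pathway lists on the + polarity array (circles) and the - polarity array after turning (squares), with dashed lines at 2-fold. Tec, Syk, Blnk and Cd79b were called negative, Dok2 was called positive, and the other genes shown were not called.

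The inhibitory arm, to which Fcgr2b belongs, held the widest range of the pathway lists. Of 11 other measured receptors with an ITIM, the negative calls numbered 4 and the positive 1 (median -0.239). The negative genes included Pirb at -0.838 ± 0.0121 (6.89-fold) and the macrophage receptor gene Sirpa at -0.786 ± 0.0224 (6.11-fold). The others were the Ly49 receptor gene Klra1 at -0.731 ± 0.133 (5.38-fold) and Cd72, which encodes an inhibitory receptor on B cells, at -0.568 ± 0.0236 (3.70-fold). The positive gene was Klrg1, a receptor of effector lymphocytes, at 1.09 ± 0.0255 (12.2-fold). Of 6 measured phosphatases and adaptors of inhibition, the negative calls numbered 0 and the positive 1 (median 0.112). Inpp5d, the lipid phosphatase SHIP-1 that Fcgr2b recruits, was at -0.0127 ± 0.0886, smaller than its spread between the arrays. The called gene was Dok2, an adaptor that recruits a Ras inhibitor, at 0.433 (+ polarity) and 0.403 (- polarity), or 2.62-fold on average. Over all 83 measured genes of the pathway lists, each counted 1 time, 18 were called negative and 2 positive, beside 5.03% negative and 3.72% positive over all named genes.

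Markers of macrophages, NK cells and B cells, the cells best known for these genes, had mostly negative ratios. Over all named genes 48.8% had a mean below 0, and 5.03% were called negative. Negative means were not particular to these cells, as 4 of 4 platelet and erythroid markers also had them. Of the dendritic cell markers 4 of 6 had means below 0, which in so few genes lies near the share of all genes. Neutrophil markers (2 of 5 below 0) and mast cell and basophil markers (2 of 4) were divided. All 14 measured macrophage and monocyte markers had a mean below 0, and 12 were called negative (median -0.828), with a range from -1.17 to -0.0221. The largest were Slc40a1, the iron exporter, at -1.17 ± 0.0205, Adgre1, a macrophage surface receptor, at -1.05 ± 0.0346, Vcam1 at -1.02 ± 0.0580 and Mrc1 at -0.982 ± 0.0660. Of the 14, 11 were more negative than Fcer1g. Spi1, which encodes PU.1, was at -0.256 ± 0.0887 and not called, and Itgam at -0.0221 ± 0.0123. Of 9 measured NK cell markers, 5 were called negative and 7 had means below 0 (median -0.400, with -0.248 and -0.540 on the + and - polarity arrays), with a range from -0.978 (Klrd1, which encodes CD94) to 0.0766. Of 10 measured B cell markers, 4 were called negative and 9 had means below 0 (median -0.240), with a range from -0.719 (Ighm, the immunoglobulin mu chain) to 0.193. The CD5 selection and flow sorting of gamma delta T cells were meant to leave these cells out, and their part in the ratios of the 5 genes was not tested. Of 11 measured T cell markers, 9 had means above 0 and 2 below 0, 2 were called positive, Cd5 at 0.614 ± 0.00771 (4.11-fold) and its relative Cd6 at 0.402 ± 0.0787 (2.52-fold), 0 were called negative, and the median was 0.110 (0.0844 and 0.171 on the + and - polarity arrays). A ratio gives no level, so whether each population held the T cell transcripts its label implies could not be read from these values.

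**Figure D4:**
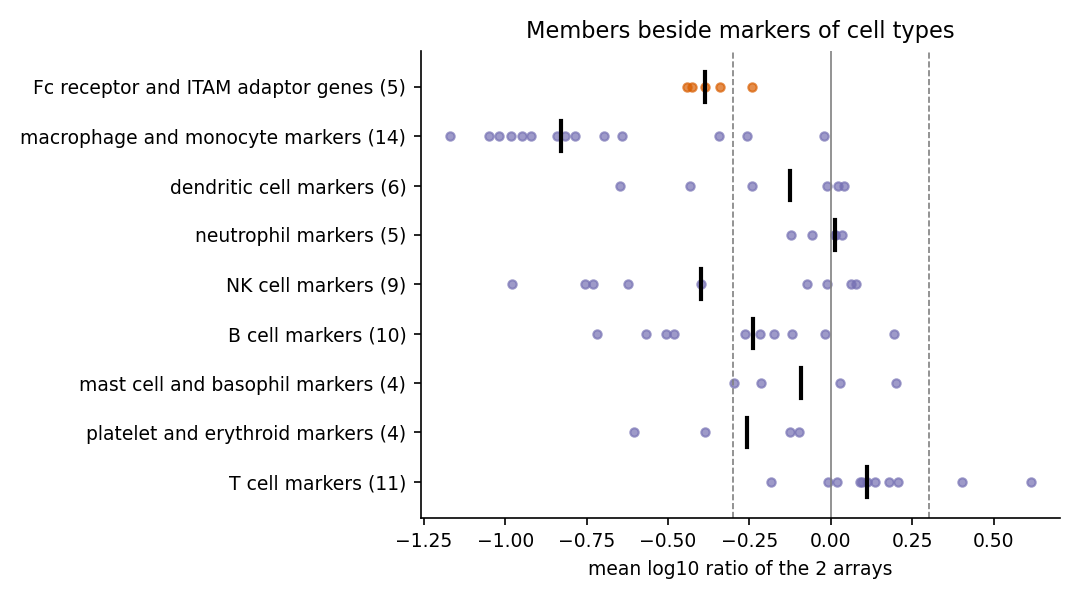
The mean log10 ratio of the 2 arrays (horizontal axis) for the 5 genes and for the measured markers of 8 cell types, 1 point per gene, with the median of each row as a bar and dashed lines at 2-fold. The 5 genes have a median of -0.386. The marker medians run from -0.828 (macrophages and monocytes) to 0.110 (T cells). That of NK cells, -0.400, comes from unlike array medians of -0.248 (+ polarity) and -0.540 (- polarity).

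The genes with the most similar pair of array values were taken by the Euclidean distance between their log10 ratios over the 2 arrays. With only 2 arrays this measures size and sign and no more. Nearest to Fcgr3 was Marco, a scavenger receptor of marginal zone macrophages, at a distance of 0.00377 (-0.344 ± 0.0163), followed by the MHC class II gene H2-Eb1 (-0.331 ± 0.0127) and Tmem176b (-0.339 ± 0.0301). Nearest to Fcgr2b were Vmn2r37, Fcrla and Lmo4, the first at a distance of 0.00885. Nearest to Tyrobp were the interferon gamma receptor gene Ifngr1 (-0.380 ± 0.0203), Ugcg and the ferritin light chain gene Ftl1. Nearest to Fcer1g were Cd1d2 (-0.442 ± 0.0377), Wfikkn2 and the endotoxin receptor gene Tlr4 (-0.440 ± 0.0320). Nearest to Fcgrt were Pkig, an inhibitor of protein kinase A, at -0.437 ± 0.00728, Trpm2 and 4933406I18Rik.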

How the data were processed

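The samples were 2 arrays of 1 dye-reversed comparison. The authors deposited 1 log ratio per probe and array, read here as log10, with medians of -0.00283 (+ polarity) and 0.00101 (- polarity). The sources used here name no scanner, background correction, normalization or numerator. Without intensities, dim probes could not be filtered, and precision is limited by the number of arrays. The deposited columns correlated at Pearson r = -0.301 across probes, which are not independent replicates, and the - polarity array was multiplied by -1. The platform annotation gave 1 gene for 4654 of 8014 probes, several for 73 and none for 3287; gene identifiers of 4640 were found in RefSeq (GRCm38.p6). A gene was the mean of its probes and of both arrays (Python 3.11.15, pandas 2.3.3). In 181 genes the turned arrays had opposite signs and the part that differs between them was past 2-fold. Dye effects and noise cannot be told apart in this part. The calling rule was tested on simulated data.

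The members and all gene lists were chosen with earlier results of these data known. Genes named were the 5 members, up to 4 called genes per list and side with the largest mean (up to 3 genes where none was called), and the 3 genes nearest to each member in array values. Chromosomal neighbours, motifs and other genes named with values, among them Ms4a2, Fcer1a, the Trem genes, Zap70, Lcp2, Lat, the CD3 chain genes, Inpp5d, Spi1, Itgam and those of the other observations that were not called, were chosen after their values were seen. Alternatives were other thresholds and log bases, centring, scaling, single arrays, probe medians and a filter on disagreement between arrays.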

Additional observations from a re-analysis of the deposited data

How the results depend on the processing

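The 5 member ratios stayed below 0 under all 11 alternatives, but only centring could have changed a sign. Thresholds, log bases, scaling, probe medians and the filter cannot do so for genes with 1 probe and negative values on both arrays. The single arrays repeat the values given above. The number of called members, 4, was 5 at 1.5-fold, where Fcgr2b also passed. It was 0 at 3-fold and 0 with values read as log2 or as natural logs, and stayed at 4 under the rest. Read as log2, the mean ratios on the log10 scale would be -0.133 for Fcer1g, -0.128 for Fcgrt, -0.116 for Tyrobp, -0.103 for Fcgr3 and -0.0732 for Fcgr2b. Read as natural logs, they would be -0.192, -0.185, -0.168, -0.148 and -0.106 in that order. Of all named genes, 218 were called negative and 161 positive. These counts were 409 and 365 at 1.5-fold, 96 and 48 at 3-fold, 7 and 10 as log2 and 40 and 22 as natural logs. With 1 array alone they were 224 and 228 (+ polarity) and 436 and 306 (- polarity). Pathway genes called negative, 18, numbered 29 at 1.5-fold, 10 at 3-fold, 0 as log2 and 5 as natural logs. Those called positive, 2, numbered 10 at 1.5-fold, 1 at 3-fold, 1 under either other log base, and from 2 to 5 on single arrays. Marker genes called negative, 25, numbered 3 as log2 and 14 as natural logs, and those called positive, 2, numbered 6 at 1.5-fold, 1 at 3-fold and 0 under either other log base. Of 220 list medians under the alternatives, 43 moved by more than the spread between the arrays. Other thresholds cannot move a median, and another log base shrinks every median, so this count does not measure robustness. The changes of calls at other thresholds and log bases follow from the threshold or base itself. For single arrays the cause was not tested. No paired analysis was possible because the 2 arrays are 1 replicate of 1 comparison. Signal over background was not analysed here.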

Other observations

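Fcgrt is a relative of the MHC class I genes, and those lay apart from it in value. Of 11 measured genes of the MHC class I family and its peptide loading, 1 was called negative and 0 positive, and 9 had a mean above 0, with a median log10 ratio of 0.0733 (0.0477 and 0.0988 on the + and - polarity arrays). B2m, the light chain that both Fcgrt and the class I heavy chains need, was at 0.0982 (+ polarity) and -0.0142 (- polarity), with opposite signs. The called gene was Cd1d1, which presents lipids, at -0.432 ± 0.100 (2.70-fold), close to Fcgrt at -0.427 ± 0.00962. Its relative Cd1d2 is among the 3 genes nearest to Fcer1g, and probes for both may share signal.

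Of 10 measured complement, integrin and scavenger receptors of phagocytes, the negative calls numbered 3 and the positive 0 (median -0.0633, with -0.0978 and -0.129 on the + and - polarity arrays). They were Itgax, the integrin chain CD11c, at -0.649 ± 0.00965 (4.45-fold), the lipid receptor gene Cd36 at -0.476 ± 0.234 (2.99-fold) and Marco at -0.344 ± 0.0163 (2.21-fold). Of 6 measured dendritic cell markers, Itgax and the chemokine receptor gene Ccr9 were called negative, the latter at -0.106 and -0.761 on the + and - polarity arrays, and the median was -0.127 (-0.0503 and -0.210 on the single arrays). Neutrophil markers gave 0 calls among 5 measured, with a median of 0.0131, which was below 0 on each array alone (-0.00257 and -0.0514). The 4 measured mast cell and basophil markers also gave 0 calls, with Kit, a growth factor receptor, at -0.298 ± 0.0701 (1.99-fold) and a median of -0.0918 (-0.228 and -0.0374 on the single arrays). Of 4 platelet and erythroid markers, 2 passed on the negative side, the erythropoietin receptor gene Epor at -0.604 ± 0.0574 and the globin gene Hba-a1 at -0.388 ± 0.00431, with a median of -0.256 (-0.239 and -0.464 on the single arrays).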
